A study of Homo sapiens with 15 samples.

Results

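The immediate early AP-1 and EGR factors were followed as a family of 10 genes: EGR1, EGR2, EGR3, FOS, FOSB, FOSL1, FOSL2, JUN, JUNB and JUND. They were taken by symbol, and all 10 were listed in both tables of the series, among 17769 genes with an identifier for the knockouts and 60510 for resistance. The study asked how the cytosolic HSP90 isoforms and resistance to an HSP90 inhibitor shape BCR-ABL1+ leukemia, and it sequenced mRNA of K562, a chronic myeloid leukemia cell line. EV cells were an empty vector control (3 replicates), HSP90α-KO cells were targeted at HSP90AA1 (3 replicates) and HSP90β-KO cells were targeted at HSP90AB1 (3 replicates). The sample labels describe lentiviral Cas9 and a guide RNA, sorting by a fluorescence marker and selection of clones, in the same words for every library, EV included. PUHr cells (3 replicates) were clones that had become resistant under long-term, stepwise increased PU-H71, an inhibitor that binds the N-terminal domain of HSP90, and parental cells (3 replicates) were kept in the solvent DMSO alongside. As the labels describe clonal selection, the effect of the isoform or the drug and that of the clone cannot be told apart. The replicates are called independent, but what was kept separate is not described, so the p-values measure the spread between these libraries, which may be technical.

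EGR proteins are zinc finger transcription factors that bind GC-rich promoter elements, and AP-1 is a dimer of a JUN protein with a FOS, a JUN or another bZIP protein. Their genes are transcribed within minutes of a growth factor or stress signal without new protein synthesis, through kinase cascades and promoter-bound factors such as SRF with its ELK cofactors, and the mRNAs are short-lived. In BCR-ABL1+ cells the fusion kinase keeps growth signalling active without an outside signal.

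Gene counts added up to 19594381 to 26216730 reads in a library, and a single read was worth between 0.0381 and 0.0518 CPM (read counts scaled to an effective library size). The deposited values were log2 CPM, from which whole reads were recovered and CPM computed without the prior count. The test with limma took in every gene for which 3 or more libraries of a table reached a log2 CPM of -1, 17039 genes for the knockouts and 16503 for resistance, and "rose" and "fell" stand for an adjusted p under 0.05. A gene was past the threshold when its log2 fold change was also above 1 or below -1. All 10 members were tested in both tables. In the knockout table, however, EGR2 and EGR3 reached the minimum only in HSP90α-KO, the group where they were high, so that their being tested already implied a difference.

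HSP90AA1, the gene of HSP90α, was at 716.5, 682.5 and 713.1 CPM in EV and at 92.6, 88.0 and 90.8 CPM in HSP90α-KO, a log2 fold change of -2.96. HSP90AB1, the gene of HSP90β, was at 2823.1, 2782.5 and 2812.3 CPM in EV and at 1939.2, 1909.3 and 1889.3 CPM in HSP90β-KO, a log2 fold change of -0.55. The HSP90β-KO libraries thus held most of the HSP90AB1 mRNA of EV. HSP90AA1 was at 1218.2, 1190.4 and 1209.8 CPM in HSP90β-KO, a rise of 0.78 on the log2 scale against EV (adjusted p = 2.1e-17).

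Per kilobase of exon, the scale on which genes can be compared, the members covered a wide range of levels in EV. JUND was highest at 49.9 ± 1.40 CPM per kb (SD, n = 3), followed by EGR1 at 26.4 ± 0.716, JUNB at 15.6 ± 0.884 and JUN at 13.7 ± 0.798. FOSL1 (3.75 ± 0.497), FOS (1.34 ± 0.124), FOSL2 (0.985 ± 0.0568) and FOSB (0.638 ± 0.106) lay below. EGR3 and EGR2 were last at 0.0341 ± 0.0135 and 0.0274 ± 0.0131 CPM per kb, levels whose spreads overlapped and which rested on 2 to 6 and on 1 to 3 reads per library. JUND, EGR1, JUNB and JUN were therefore the abundant transcripts of the family in these cells, and EGR2 and EGR3 were close to the limit of detection.

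In GRCh38, EGR1 (ENSG00000120738) spans 138465479 to 138469303 of chromosome 5, plus strand, and EGR2 (ENSG00000122877) spans 62811996 to 62819167 of chromosome 10, minus strand. Both rose in HSP90α-KO, EGR2 with the limit of the test given above. Both have a CArG box, the binding element of SRF, in front of a start site. Promoters (250 bases before to 50 after a start) came from RefSeq on GRCh38.p14, and 8 of the 10 members had an entry. The stretches are shown because CArG boxes drive EGR transcription in the textbook account. The first is chr5:138465354-138465425 on the plus strand, 125 to 54 bases before the EGR1 start, and the second chr10:62816408-62816457 on the minus strand, 91 to 42 bases before the third of 3 EGR2 starts, each with the CArG boxes in capitals.
EGR1: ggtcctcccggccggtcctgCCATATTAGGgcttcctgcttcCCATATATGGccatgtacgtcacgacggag
EGR2: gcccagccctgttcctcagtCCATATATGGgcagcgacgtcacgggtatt
Among the promoters, those of EGR1 and of the second EGR2 start, 8 bases after it, held a match to GCGNGGGCG, an EGR binding element. The EGR1 match is shown from chr5:138465261-138465309 on the plus strand, in capitals.
EGR1: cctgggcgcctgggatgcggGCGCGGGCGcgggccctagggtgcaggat
JUND had the cyclic AMP response element TGACGTCA at chr19:18281795-18281842 on the minus strand, in capitals here.
JUND: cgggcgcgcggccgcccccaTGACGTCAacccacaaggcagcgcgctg
Both strands were searched for these motifs and for the AP-1 element TGANTCA, which was found after the FOSL2 start. The motifs were chosen after the promoters had been looked at. FOS, FOSB, JUN and JUNB held none of the 4 motifs in this window, and EGR3 and FOSL1 had no entry. Of all 35116 promoters in the table, 1.29% held a CArG box, 1.85% TGACGTCA, 7.71% TGANTCA and 9.43% GCGNGGGCG. A match is a description of these letters and not evidence of binding.

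To see how the family responds to loss of HSP90α, HSP90α-KO was compared with EV. All 3 EGR genes rose, but EGR2 and EGR3 were tested only through the HSP90α-KO libraries, so their calls are no support. JUNB, JUND, FOS and FOSL1 rose by less, and no member fell. EGR1, a zinc finger factor induced by growth factors, was at 80.5, 83.3 and 84.9 CPM in EV and at 341.2, 311.4 and 316.8 CPM in HSP90α-KO. Each HSP90α-KO library was far above each EV library, and the 3.89-fold difference (log2 fold change 1.96, standard error 0.037, adjusted p = 2.4e-24) had the smallest adjusted p of the family. It was the only well-measured member past the threshold. Since RNA of whole cultures was measured, more cells with EGR1 mRNA and more EGR1 mRNA per cell cannot be told apart.

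EGR2, which in myeloid cells takes part in monocytic differentiation, had 3, 1 and 3 reads in EV and 38, 34 and 38 reads in HSP90α-KO. Over the pooled reads the ratio was 18.0, with a 95% interval for counting error of 8.46 to 45.9 (exact binomial). Its fitted log2 fold change of 3.37 (adjusted p = 1.6e-07) depends on the prior count. EGR3 (ENSG00000179388), a related factor on the minus strand of chromosome 8, had 4, 2 and 6 reads in EV and 19, 19 and 22 in HSP90α-KO, a ratio of 5.74 (3.06 to 11.7) and a fitted log2 fold change of 2.11 (adjusted p = 8.9e-06). The libraries of the groups did not overlap for either gene, yet HSP90α-KO reached only 1.86 ± 0.0947 CPM of EGR2 and 1.01 ± 0.104 CPM of EGR3. The intervals cover counting error only. An unnamed lncRNA lies on the strand of EGR2 with overlapping exons, so some of these reads could belong to it.

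Among the FOS genes, FOS (ENSG00000170345), the founding partner of JUN in AP-1, was at 4.09, 4 and 4.73 CPM in EV and at 6.79, 5.75 and 5.85 CPM in HSP90α-KO. The libraries did not overlap, and FOS rose 1.43-fold (log2 fold change 0.51, standard error 0.12, adjusted p = 9e-04). FOSL1, which codes for FRA-1, was at 5.99, 7.57 and 7.66 CPM in EV and at 8.84, 7.98 and 9.03 CPM in HSP90α-KO. Its rise was small (log2 fold change 0.29, adjusted p = 0.028) and rested on the low first EV replicate, as the log2 fold change was 0.17 (adjusted p = 0.2) without it. The call was also lost without HSP90α-KO replicate 1 (adjusted p = 0.064) or replicate 3 (adjusted p = 0.079). FOSB was lower in each HSP90α-KO library (2.62 to 2.93 CPM) than in each EV library (3.04 to 4.19 CPM), but the difference missed the threshold (log2 fold change -0.32, 95% confidence interval -0.62 to -0.02, adjusted p = 0.067), and passed it without EV replicate 1 (-0.42, adjusted p = 0.032). FOSL2, the gene of FRA-2, overlapped between the groups, with a log2 fold change of -0.17 (-0.41 to 0.07, adjusted p = 0.23).

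The JUN genes split. JUNB (ENSG00000171223), a JUN protein that often restrains proliferation, was at 27.0, 28.4 and 30.2 CPM in EV and at 52.6, 50.7 and 46.2 CPM in HSP90α-KO, without overlap. It rose 1.74-fold (log2 fold change 0.80, standard error 0.055, adjusted p = 1.5e-12). JUND, the JUN gene least dependent on stimulation, was at 93.5, 96.2 and 98.9 CPM in EV and at 134.4, 112.8 and 120.7 CPM in HSP90α-KO, a rise of 1.27-fold (log2 fold change 0.35, adjusted p = 4.9e-07). JUN itself was at 47.7, 53.0 and 48.3 CPM in EV and 53.9, 49.0 and 46.9 CPM in HSP90α-KO. The groups overlapped fully, and the log2 fold change of 0.01 had a 95% confidence interval of -0.10 to 0.11. HOOK2 overlaps exons of JUNB on the opposite strand, and with the strand setting of the counting not given in the sources used here, the 408 to 661 reads listed for HOOK2 give the scale at which the pair could be mixed.

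In all, 7 members rose and 0 fell, where 27.5% of all tested genes rose and 26.6% fell. Of these, 3 were above the threshold, EGR1, EGR2 and EGR3, and 0 below it, where 5.32% of tested genes were above and 5.01% below. With limma, 0 of 10 members fell, and FOSB alone had a 95% confidence interval wholly below 0. EGR2 and EGR3 entered the test through HSP90α-KO and are not to be counted in this comparison of shares.

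**Figure D1:**
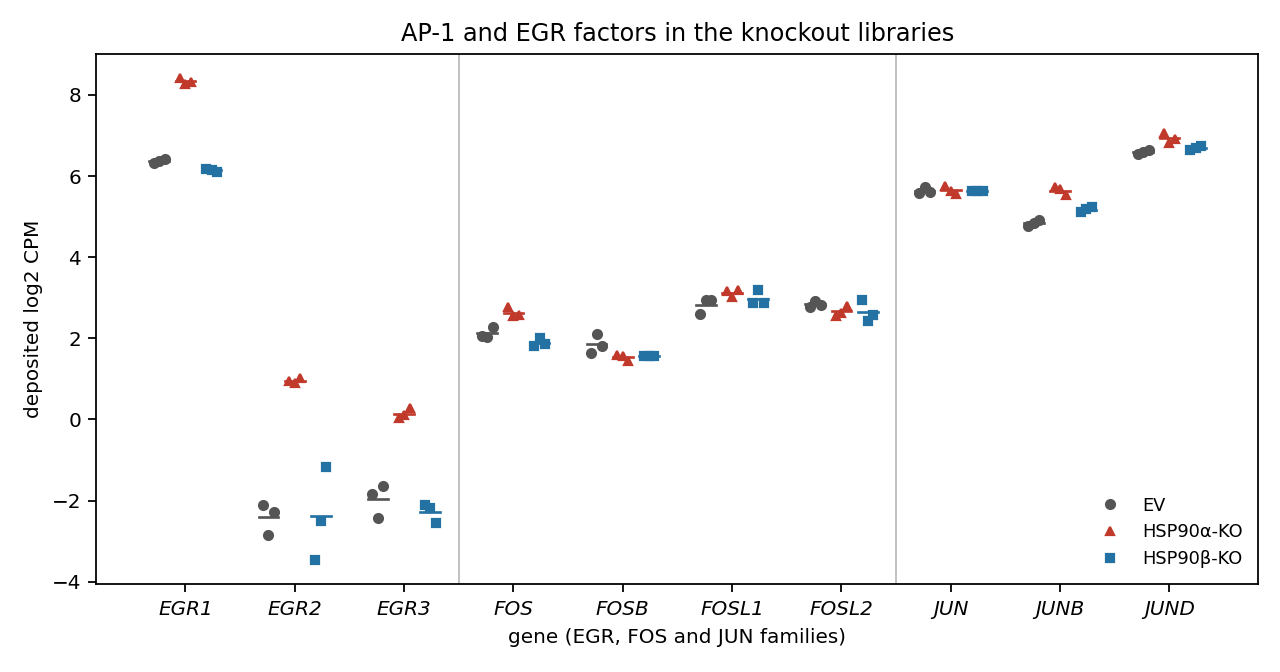
Deposited log2 CPM (y axis) of the 10 members (x axis) in each EV, HSP90α-KO and HSP90β-KO library, with bars at the group means. HSP90α-KO lies above EV and HSP90β-KO for the 3 EGR genes, with EGR1 at 8.34 against 6.37 and 6.14 on average, while JUN is level in all groups.

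The comparison of HSP90β-KO with EV gave a different picture. EGR1 fell slightly, JUNB rose slightly, and the other 8 members did not pass the test. EGR1 was at 72.2, 70.5 and 68.7 CPM in HSP90β-KO, below each EV library, and it fell with a log2 fold change of -0.23 (adjusted p = 1.6e-05). JUNB was at 34.4, 36.3 and 37.3 CPM, above each EV library, with a log2 fold change of 0.34 (adjusted p = 2.1e-05). JUND, at 99.4, 103.3 and 107.4 CPM, also lay above each EV library but missed the threshold (log2 fold change 0.10, 95% confidence interval 0.01 to 0.20, adjusted p = 0.088). The JUND test passed without HSP90α-KO replicate 1, which adds to the shared estimate of the spread (adjusted p = 0.03), and in a fit of only the 6 libraries compared (adjusted p = 0.02).

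EGR2 had 0, 2 and 9 reads in HSP90β-KO and EGR3 3, 3 and 2, so that a change against EV was not detectable at this depth. The ratio of pooled reads was 1.53 (0.543 to 4.67) for EGR2 and 0.651 (0.231 to 1.73) for EGR3. FOS was at 3.43, 3.97 and 3.52 CPM, below each EV library, with a log2 fold change of -0.22 (-0.48 to 0.03, adjusted p = 0.16). FOSB, at 2.86, 2.86 and 2.85 CPM also below each EV library, had -0.29 (-0.59 to 0.01), FOSL1 0.15 (-0.08 to 0.37) and FOSL2 -0.19 (-0.43 to 0.06), and for FOSL2 the first HSP90β-KO replicate stood higher at 7.63 CPM than the others at 5.25 and 5.90 CPM. Without that library FOSL2 passed as lower (log2 fold change -0.34, adjusted p = 0.035). JUN was at 49.9, 49.1 and 49.7 CPM, a log2 fold change of 0.00 (-0.11 to 0.10). Thus 1 member rose and 1 fell, where 17.2% of tested genes rose and 17.2% fell, and 0 members were past the threshold, where 1.83% of tested genes were above and 2.65% below it.

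Both comparisons share the EV libraries, so the knockouts were also compared directly. EGR1 was 4.58-fold higher in HSP90α-KO than in HSP90β-KO (log2 fold change 2.19, standard error 0.037, adjusted p = 1.1e-25). For EGR2 the ratio of pooled reads was 11.8 (6.32 to 24.2) and for EGR3 it was 8.82 (4.2 to 21.3). FOS (log2 fold change 0.74, adjusted p = 9.6e-06), JUNB (0.47, adjusted p = 3.7e-08) and JUND (0.24, adjusted p = 6.3e-05) were higher in HSP90α-KO as well. FOSB, FOSL1, FOSL2 and JUN overlapped between the knockouts, with log2 fold changes between -0.03 and 0.14. In all, 6 members were higher and 0 lower, where 30.1% of tested genes were higher and 29.8% lower, and 3 were above the threshold and 0 below, where 7.14% of tested genes were above and 5.57% below. EGR2 and EGR3 are again in these counts only through HSP90α-KO and are no support in the comparison of shares. JUNB was thus ordered HSP90α-KO, HSP90β-KO and EV from high to low with each step past the test, and EGR1 HSP90α-KO, EV and HSP90β-KO.

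In resistance, the family moved in both directions. PUHr cells had less FOS, EGR3, FOSB, EGR2 and JUNB and more FOSL2, JUN, JUND and FOSL1 than parental cells. FOS was at 14.7, 15.0 and 12.9 CPM in parental and at 5.46, 5.48 and 6.41 CPM in PUHr. Each PUHr library lay far below each parental library, and the 2.43-fold difference (log2 fold change -1.28, standard error 0.093, adjusted p = 2.8e-08) made FOS the only member past the threshold. FOSL2, at 5.92, 7.68 and 7.32 CPM in parental and 13.3, 14.0 and 14.0 CPM in PUHr, rose 1.98-fold, just under the threshold (log2 fold change 0.99, standard error 0.096, adjusted p = 6.7e-07). Without parental replicate 2 (1.06), parental replicate 3 (1.02) or PUHr replicate 1 (1.01) it was above 1. FOSB fell from 2.72 ± 0.284 to 1.88 ± 0.211 CPM (log2 fold change -0.51, adjusted p = 0.014), a call lost without parental replicate 1 (adjusted p = 0.064) or PUHr replicate 1 (adjusted p = 0.056). FOSL1 rose from 21.0 ± 0.698 to 24.9 ± 1.38 CPM (log2 fold change 0.25, adjusted p = 0.0019). Per kilobase, FOS was at 4.45 ± 0.363 and FOSL2 at 0.973 ± 0.13 CPM per kb in parental, and at 1.81 ± 0.17 and 1.93 ± 0.0562 CPM per kb in PUHr, where the spreads overlapped.

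EGR1 was at 185.2, 181.6 and 176.8 CPM in parental and 168.7, 180.6 and 170.4 CPM in PUHr, groups that overlapped (log2 fold change -0.07, 95% confidence interval -0.13 to 0.00, adjusted p = 0.093). It passed as lower without PUHr replicate 2 (-0.10, adjusted p = 0.0039) and after median centring (-0.11, adjusted p = 0.0037). EGR3 was at 7.74, 8.98 and 8.72 CPM in parental and 5.26, 5.39 and 4.89 CPM in PUHr. All PUHr libraries were lower, and EGR3 fell 1.62-fold (log2 fold change -0.70, standard error 0.097, adjusted p = 2.6e-05). EGR2 was at 5.07, 4.28 and 4.27 CPM in parental and 3.37, 3.81 and 3.56 CPM in PUHr (log2 fold change -0.33, adjusted p = 0.034). That call was lost without parental replicate 1 (adjusted p = 0.14), PUHr replicate 1 (adjusted p = 0.095) or PUHr replicate 3 (adjusted p = 0.071).

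**Figure D2:**
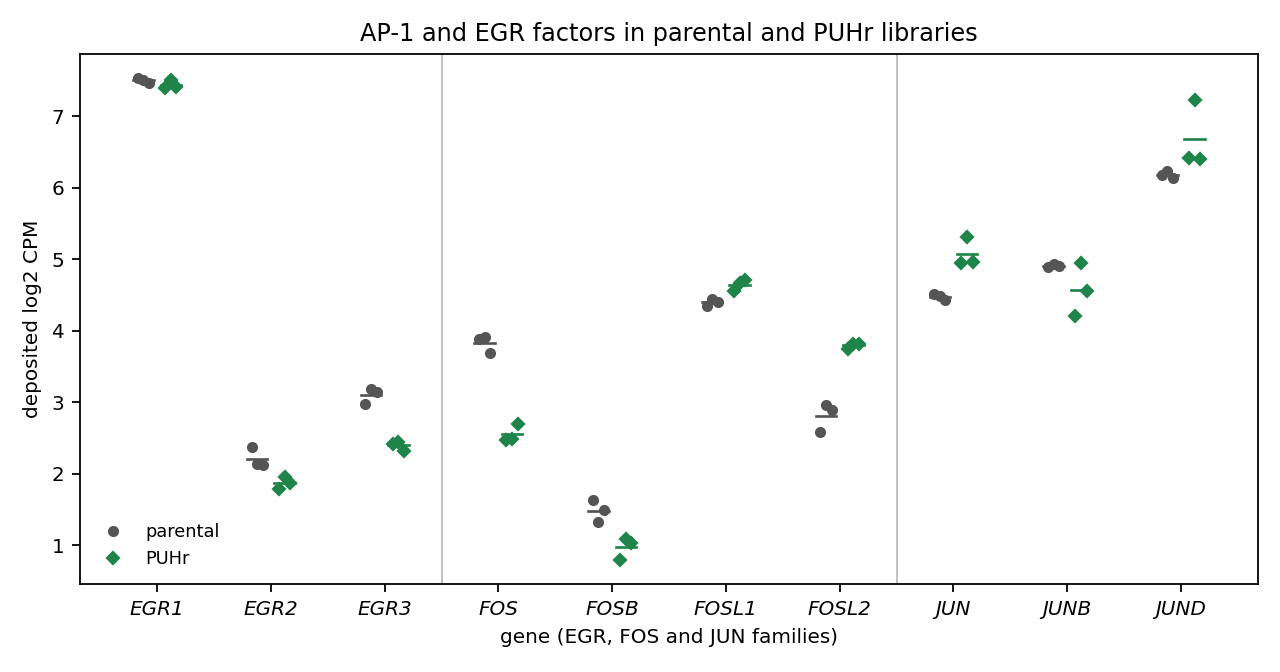
Deposited log2 CPM (y axis) of the members (x axis) in each parental and PUHr library, with bars at the group means. FOS averages 3.83 in parental and 2.55 in PUHr, FOSL2 2.81 and 3.80, and the PUHr libraries of JUNB and JUND spread more widely than those of the other genes.

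The JUN genes of PUHr need a look at single libraries. JUN was at 22.7, 22.4 and 21.5 CPM in parental and 30.8, 39.7 and 31.1 CPM in PUHr, a rise of 1.51-fold without overlap (log2 fold change 0.60, standard error 0.079, adjusted p = 1.6e-05). JUND was at 71.7, 75.2 and 70.2 CPM in parental and 84.8, 150.0 and 84.4 CPM in PUHr, where replicate 2 was far above the others (log2 fold change 0.50, standard error 0.15, adjusted p = 0.013). JUNB was at 29.5, 30.4 and 29.8 CPM in parental and 18.3, 30.8 and 23.3 CPM in PUHr, where replicate 2 reached the parental level (log2 fold change -0.34, adjusted p = 0.033). Without PUHr replicate 2 the log2 fold change was 0.48 for JUN (adjusted p = 1.3e-09), 0.23 for JUND (adjusted p = 1.4e-06) and -0.53 for JUNB (adjusted p = 3.4e-09). JUNB lost the call without PUHr replicate 1 (-0.16, adjusted p = 0.15), PUHr replicate 3 (adjusted p = 0.086) or any parental replicate (adjusted p from 0.084 to 0.088), and JUND without parental replicate 3 (adjusted p = 0.055).

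PUHr replicate 2 stood apart more widely. Of 12275 genes whose mean log2 CPM was at or above 1, 1.55% deviated from the mean of the other PUHr replicates by over 0.5 on the log2 scale, against 0.365% to 0.948% in the other libraries of both tables. Among the 614 genes of highest GC content (the upper 5 percent), its median deviation was 0.25, with 0.71 at the 95th percentile, and that of PUHr replicate 1 was -0.18. JUND, with 69.9% GC in its longest transcript, deviated by 0.83 in replicate 2, JUNB, with 64.9%, by 0.58 and JUN, with 56.1%, by 0.36. FOSB, with 57.6%, deviated by 0.18 and FOSL1, with 58.7%, by 0.03. Between the gene quintiles of highest and lowest GC content, PUHr replicate 2 differed by 0.05, EV replicate 2 by 0.17 and HSP90α-KO replicate 3 by -0.17. The part of GC content in the JUN, JUNB and JUND results was not tested beyond the fits without the library.

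**Figure D3:**
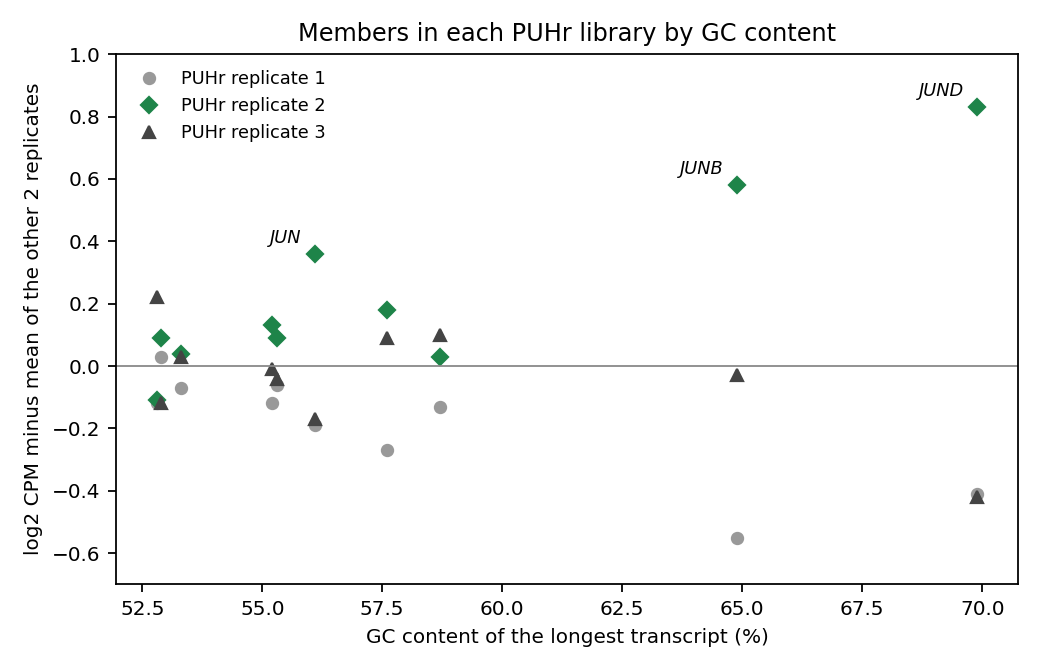
Difference of each member's log2 CPM in a PUHr library from the mean of the other 2 PUHr libraries (y axis) against the GC content of its longest transcript in percent (x axis). In replicate 2 JUND (0.83), JUNB (0.58) and JUN (0.36) lie above the remaining members, which are between -0.11 and 0.18.

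In sum over the family, 4 members rose and 5 fell in PUHr, where 25.6% of tested genes rose and 25.8% fell, and 0 were above and 1 below the threshold, where 5.37% of tested genes were above and 4.69% below.

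The levels of the control cells, EV and the parental cells kept in DMSO, differed between the tables. These were normalised separately, so no test was made between them. EGR2 averaged 0.102 CPM in EV and 4.54 CPM in parental, EGR3 0.172 and 8.48 CPM, EGR1 82.9 and 181.2 CPM, and FOS 4.27 and 14.2 CPM. FOSL1 averaged 7.07 and 21.0 CPM in EV and parental, while JUN was lower in parental (22.2 CPM) than in EV (49.7 CPM). HSP90α-KO reached 323.1 CPM of EGR1, above the parental mean, but only 1.86 CPM of EGR2, below it.

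Genes around the family were read from lists of partners, regulators and targets. The list counts stand beside shares of all tested genes of 27.5% up and 26.6% down in HSP90α-KO, 17.2% each way in HSP90β-KO, and 25.6% up and 25.8% down in PUHr. Some listed genes met the minimum of the test only with the libraries of the group where they were high. Their calls in the counts are no support: ARC, MAFA and F3 (HSP90α-KO), PDGFA (HSP90β-KO), BATF, MAF, SPP1 and PPBP (PUHr) and ARC (parental). NAB1 and NAB2, corepressors that bind EGR proteins and are themselves EGR targets in part, both rose in HSP90α-KO. NAB2 went from 25.1, 27.2 and 26.8 CPM in EV to 55.3, 56.0 and 51.9 CPM in HSP90α-KO (log2 fold change 1.04, adjusted p = 1.7e-14), and NAB1 rose by 0.12 (adjusted p = 0.013). Both fell in HSP90β-KO, NAB1 with a log2 fold change of -0.68 (adjusted p = 4.9e-13) and NAB2 with -0.24 (adjusted p = 0.0019), and both rose in PUHr (0.28 and 0.36). The 23 neighbours of NAB1 within 5 Mb (tested, mean log2 CPM at or above 1) shared its fall in HSP90β-KO, where their median was -0.59. EGR4, the remaining EGR gene, was not listed in the knockout table and had 0 to 2 reads per library in the resistance table.

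Of 7 genes for SRF and other promoter-bound factors, 5 rose and 1 fell in HSP90α-KO, with a median log2 fold change of 0.29 against -0.01 for all tested genes. ELK3 (0.76), MRTFB (0.46) and ELK1 (0.34) rose and ELK4 fell (-0.51). In HSP90β-KO 1 rose (ELK3, 0.31) and 4 fell, CREB1 with -0.49, MRTFB with -0.39 and ELK4 with -0.26 among them, and the 25 neighbours of CREB1 had a median of -0.66. In PUHr ELK3 rose (0.47), MRTFA fell (-0.36) and 5 did not pass. RPS6KA1 (0.46) and RPS6KA3 (0.38), which code for RSK kinases, rose in HSP90α-KO.

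Of 25 other immediate early genes, 23 were tested in the knockout table. In HSP90α-KO 14 of them rose, 1 fell and 8 did not pass, with a median log2 fold change of 0.20. NR4A1, a nuclear receptor induced with EGR1, went from 5.52, 6.31 and 6.79 CPM to 14.0, 13.8 and 13.7 CPM (log2 fold change 1.15, adjusted p = 3.5e-09). ZFP36L2 (1.05), an mRNA decay factor, and the kinase gene SGK1 (0.91) rose as well, and NR4A2 fell (-0.41). In HSP90β-KO 7 rose and 3 fell, with TRIB1 (0.61) and BTG2 (0.58) among the rises and CCN1 (-1) the largest named fall. In PUHr 8 of 21 rose and 7 fell, KLF4 by 1.05 upward and CCN1 (-1.23), DUSP1 (-0.49) and NR4A1 (-0.42) downward.

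AP-1 proteins also pair with other bZIP factors, of which 11 of 14 were tested in the knockout table. BATF3 rose in HSP90α-KO from 8, 13 and 17 reads to 169, 146 and 144 reads (log2 fold change 3.63, adjusted p = 1.8e-14), together with BACH2 (0.34), while NFE2 (-0.65), BATF2 (-0.59) and MAFG (-0.38) fell. In number, 3 rose and 4 fell there, 3 rose and 3 fell in HSP90β-KO, and 4 of 13 rose and 4 fell in PUHr. MAF went from 7, 7 and 10 reads in parental to 325, 336 and 340 reads in PUHr, and JDP2, a repressor of AP-1, fell (-1.10, adjusted p = 2.9e-05).

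Of 18 listed target genes of AP-1 or EGR, 13 were tested in the knockout table. In HSP90α-KO 8 rose and 2 fell, with a median log2 fold change of 0.57. CCND1, a cyclin gene, rose from 0.998, 1.01 and 1.30 CPM to 6.30, 5.59 and 6.21 CPM (log2 fold change 2.37), PLAU by 1.26 and FN1 by 1.25, while MMP1 fell (-1.15). In HSP90β-KO 8 rose and 4 fell, THBS1 (1.81), MMP1 (1.24) and PLAU (0.86) upward and CCND1 (-0.88), FN1 (-0.78) and PLAUR (-0.36) downward. In PUHr 6 of 14 rose and 8 fell, IL6 (2.71), PDGFA (2.48) and F3 (1.55) upward and MMP1 (-1.36), FN1 (-1.30) and CCND1 (-0.88) downward. CCND1 and FN1 thus rose in HSP90α-KO and fell in HSP90β-KO and PUHr, and for the neighbours of FN1 the HSP90β-KO median was -0.51.

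**Figure D4:**
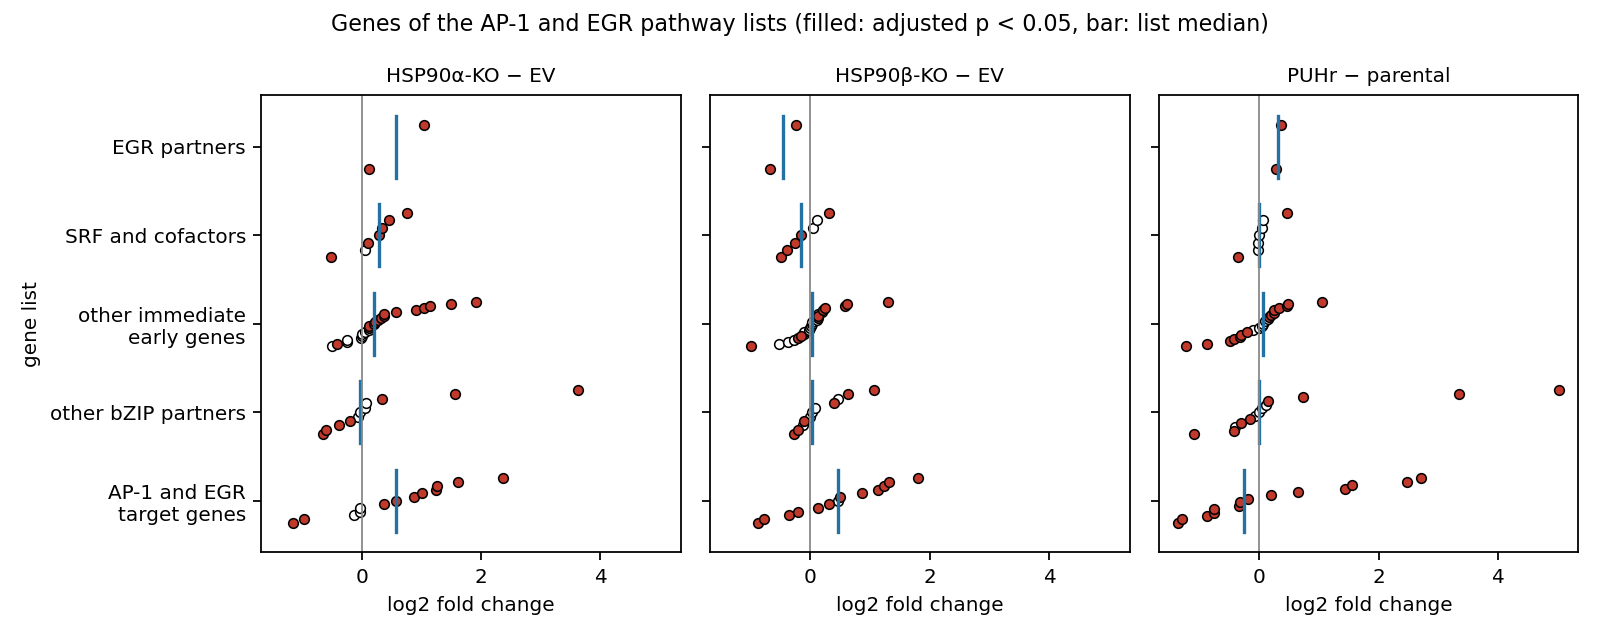
Log2 fold change (x axis) of every tested gene in 5 lists around the family (y axis), for HSP90α-KO and HSP90β-KO against EV and PUHr against parental, with filled points at an adjusted p under 0.05 and bars at list medians. The medians of the other immediate early genes are 0.20, 0.02 and 0.06, and MAF is the rightmost point at 5.03 in PUHr.

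Lineage markers and RNA measures moved with the groups too. K562 cells are erythroid in character, and of 9 tested erythroid genes 6 fell and 2 rose in HSP90α-KO, ALAS2 with a log2 fold change of -1.56, HBG2 with -1.22 and HBZ with -1.04, while KLF1 (0.24) and GATA1 (0.18) rose. The summed level of the list was 1064.3, 1077.8 and 1063.7 CPM in EV, 868.6, 871.8 and 850.7 CPM in HSP90α-KO and 920.9, 939.4 and 906.2 CPM in HSP90β-KO, with TFRC its most abundant gene. Of its 10 genes, HBE1 was not listed in the knockout table, and none of the other 9 had 3 reads or fewer throughout. In HSP90β-KO 5 fell and 0 rose. In PUHr the sum was 2255.1, 2276.9 and 2192.8 CPM against 2843.4, 2829.4 and 2812.5 CPM in parental, and 3 genes rose and 5 fell, ALAS2 rising by 1.01 and HBG1 falling (-0.97). Their part in the AP-1 and EGR results was not tested.

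The monocytic list summed to 169.9, 169.3 and 167.6 CPM in EV and 183.5, 180.1 and 184.0 CPM in HSP90α-KO, mostly from ITGAM, with FCGR1A (1.26) and LYZ (0.58) up and ITGAM down (-0.27), and all 3 tested genes fell in HSP90β-KO. In PUHr ITGAM (-0.47) and LYZ (-0.28) fell. Megakaryocytic genes, led by ITGA2B, summed to 17.0, 16.6 and 16.6 CPM in EV, 17.1, 17.5 and 14.8 CPM in HSP90α-KO and 11.9, 12.2 and 11.6 CPM in HSP90β-KO. Of 2 tested there, GP1BA fell in HSP90α-KO (-0.39), and GP1BA (-0.59) and ITGA2B (-0.45) fell in HSP90β-KO. The sum was 14.9, 16.0 and 16.2 CPM in parental and 12.5, 10.7 and 11.6 CPM in PUHr. Of 4 tested in PUHr, 2 rose and 1 fell, with ITGB3 up (0.89) and ITGA2B down (-1.11). The other rise was that of PPBP (1.97), which met the minimum only with the PUHr libraries, so its call is no support. GP9 and PF4 had no more than 3 reads in any parental or PUHr library. T cell genes summed to at most 17.3 CPM. MS4A1, PAX5, CD2 and CD8A had no more than 3 reads in any library of the resistance table. CD3E (-2.85) and CD3D (-0.43) fell in HSP90α-KO, and CD3D rose in HSP90β-KO (1.26) and fell in PUHr (-0.34).

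Heat shock genes respond to handling and also to HSP90 inhibition, and these cannot be told apart here. Their summed level, mostly from HSPA8, was 997.6, 970.7 and 1019.8 CPM in EV, 1111.1, 1117.0 and 1172.4 CPM in HSP90α-KO and 707.5, 699.0 and 718.7 CPM in HSP90β-KO. It was 3229.3, 3194.6 and 3186.1 CPM in parental and 2565.5, 2552.5 and 2489.2 CPM in PUHr. In HSP90α-KO BAG3 (0.66) and HSPA8 (0.21) rose and HSPH1 fell (-0.12). In HSP90β-KO 3 of 5 tested genes fell, HSPA8 (-0.63), DNAJB1 (-0.30) and HSPA1A (-1.5), while BAG3 rose (0.16). HSPA1A rested on 7 to 8 reads against 18 to 29 in EV. The related gene HSPA1B was not listed in the knockout table and had no more than 3 reads in any library of the resistance table. How reads matching both genes were counted is not given, so the HSPA1A fall may not stand for the mRNA of both. In PUHr DNAJB1 rose (0.12) while BAG3 (-0.43) and HSPA8 (-0.39) fell. The share of reads on mitochondrial genes was 13.1% to 13.7% in EV, 11.3% to 12.4% in HSP90α-KO, 12.4% to 12.6% in HSP90β-KO, 9.47% to 9.54% in parental and 8.67% to 8.95% in PUHr. Each knockout and PUHr thus lay below its control, and the part of these shares and of the heat shock genes in the results was not tested.

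The position of the members was read against their neighbours. Across the 4 comparisons the median log2 fold change of the neighbours, taken as above, lay between -0.11 and 0.09 for every member. Around EGR1 the median of 78 genes was 0.05 in HSP90α-KO, around JUNB that of 187 genes was 0.02, and around FOS that of 60 genes was 0.09 in PUHr. The part of copy number in the member results was not tested.

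Over the 9 knockout libraries, the genes whose log2 CPM followed EGR1 most closely were KIT, MKI67 and MFSD14B (Pearson's r = 0.999 each, among 12341 other genes). KIT, a receptor tyrosine kinase gene, had log2 fold changes of 2.04 in HSP90α-KO and -0.26 in HSP90β-KO, and MKI67, a proliferation marker, 1.09 and -0.13. FOS was followed by the unnamed gene ENSG00000285756 (r = 0.989), KISS1R (r = 0.981) and LCOR (r = 0.980), and JUN by TRAF7 (r = 0.949), GGA1 (r = 0.941) and ZNF316 (r = 0.939). These values describe 9 libraries in 3 groups that share a table and their depth, and were chosen as the highest of many.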

How the data were processed

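K562 RNA-seq was read from 2 tables, 1 of the EV, HSP90α-KO and HSP90β-KO libraries and 1 of the parental and PUHr libraries. The submitters' processing notes name STAR, featureCounts, edgeR and the build hg38. The authors deposited log2 CPM, for which read counts were scaled to an effective library size, a prior count of 2 added and the logarithm taken. A read was worth 0.972 to 1.03 times its value under plain scaling to the counted reads (1.01 to 1.03 in HSP90α-KO and parental, 0.992 to 0.999 in EV and 0.972 to 0.984 in HSP90β-KO and PUHr), and how this factor was set was not tested. On the linear scale all values under 1000 reads were whole multiples of 1 read within 3.5e-07 reads, so reads were recovered. Rows without an identifier (30 and 114, 0.027% to 0.0363% of reads) were left out.

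The test used limma 3.58.1 in R 4.3.3 (lmFit, contrasts.fit, moderated by eBayes along an intensity trend) on each gene for which 3 or more libraries reached a log2 CPM of -1, in 1 fit of each table, with Benjamini-Hochberg adjustment over all tested genes, 17039 and 16503. Groups came from the sample titles. Replicate pairs of a group differed by a chi-square of 1.15 to 3.86 per degree of freedom, and all were kept as separate libraries. Repeat libraries of the same culture could also differ this much, so these values do not settle whether the replicates are technical. Intervals of read ratios are exact binomial (scipy 1.17.1). GC content came from the longest transcript and exon lengths from the gencode v44 annotation, which may not be the release the authors used.

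The members and gene lists were chosen with earlier results of these data known. All 10 members and both HSP90 genes are named, and of each list up to 3 genes per direction with the largest log2 fold change among those with an adjusted p under 0.05 and a mean log2 CPM of 0 or more. HSPA1A and the genes with a call that met the minimum only through 1 group are named outside this rule. For EGR1, FOS and JUN the 3 genes of highest Pearson's r were named. Neighbours, GC content and promoter motifs were looked at after the values had been seen. Alternatives covered the filter, pseudocounts of 0.1, 1 and 5 CPM, scaling, the variance model, voom on the recovered reads, a replicate block and each library left out.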

Additional observations from a re-analysis of the deposited data

How the results depend on the processing

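No member with an adjusted p under 0.05 changed direction under any alternative. Of 1064 values of members under alternatives, 1020 kept their side of the adjusted p, 32 lost the call and 12 gained it. Past the threshold in HSP90α-KO against EV were 3 members, 1 with only genes of a mean log2 CPM of 1 or more, 1 with 5 CPM added, 7 by the adjusted p alone and 1 to 3 with each library left out. HSP90α-KO against HSP90β-KO gave 3, and 1, 1, 6 and 1 to 3 in the same order. The stricter filter and the fits without an HSP90α-KO library drop EGR2 and EGR3 from the test, since these reach the minimum in that group alone, and 5 CPM is above their levels. With the tested genes kept, an alternative chosen after seeing the data, all 3 stayed in number in each fit. Rises in HSP90α-KO numbered 7, and 4 to 7 with each library left out. In HSP90β-KO 0 members were past the threshold and 2 by the adjusted p alone. In PUHr 1 was past it, 0 with 5 CPM added, 9 by the adjusted p alone and 1 to 2 with each library left out. Past the adjusted p in PUHr were 9 members, 6 to 10 with each library left out, where EGR1 joins without PUHr replicate 2, and 5 to 10 with the tested genes kept, where JUND is lost without parental replicate 1 (adjusted p = 0.056). Without the intensity trend FOSL1 in HSP90α-KO (adjusted p = 0.095) and JUNB and JUND in PUHr (adjusted p = 0.2 and 0.15) were lost, and FOSB in HSP90α-KO passed (adjusted p = 0.04), as it did with 5 CPM added (adjusted p = 0.033). HSP90AA1 and HSP90AB1, lower in PUHr as deposited (-0.13 and -0.24), were higher after quantile normalization (0.08 and 0.05), and the cause was not tested. Same-numbered libraries did not deviate together (r from -0.18 to 0.099), and 3 of 9 and 2 of 6 libraries correlated best with their own number. The replicate block left every member count as it was (3, 0, 3 and 1 past the threshold). Depth limits EGR2 and EGR3 in EV and HSP90β-KO, at 0 to 9 reads per library.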
